A study of Gallus gallus with 10 samples.

Results

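The collagen genes other than COL10A1 were examined in the isthmus of the hen oviduct, where eggshell membrane fibers are laid around the egg. Members were the rows of the expression table whose symbol has the form COL, a number, A and a number, with the COL10A1 row left out, which gave 25 genes of 17617 rows. RNA-seq had been made from 10 dwarf white hens, 1 library per hen, 5 in the translucent group, whose eggs were graded as translucent over repeated gradings, and 5 in the opaque group, whose eggs were graded as opaque. Both groups carried the label WT and received no treatment, the animals were aged laying hens, and the tissue was the white isthmus. The paper's methods call the time of sampling the calcification stage. Its results place the eggs in the white isthmus at that time, and its discussion speaks of membrane formation. Within the graded groups the sampled hens had also been chosen on their shell membranes, normal in the opaque group and thinner in the translucent group, so that the comparison describes selected birds. For the eggs inside these hens at sampling, however, the paper found membrane thickness not significantly different between the groups.

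Collagens are proteins of 3 chains wound into a triple helix. Fibrillar collagens (types I, II, III and V here) build the fibers of connective tissue, type IV forms the sheet-like network of basement membranes, type VI forms beaded filaments between cells and fibers, and types VII and XVII anchor epithelial cells to the matrix below them. In the oviduct the epithelium and its glands secrete the egg components, while fibroblasts and smooth muscle cells in the wall below lay down most of the fibrillar matrix. FPKM, in which reads are scaled by gene length and library size, was used to compare levels between genes. CPM, in which reads are scaled by library size alone after TMM adjustment, was used for group means and correlations. Values listed hen by hen are FPKM unless CPM or reads are named, and these lack the TMM adjustment.

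The libraries held 11601225 to 19014779 reads, with 4 of the 5 opaque libraries between 11601225 and 11746135 and every translucent library at 15245165 or more. COL10A1 and LOXL2, which mark the isthmus, took a summed 63036 to 81367 CPM, and the summed FPKM of the 25 other collagen genes was 166 ± 42.9 (SD, n = 10), so that COL10A1 alone stood 122 to 312 times above all of them together. On the first principal component of all tested genes, which carried 39.8% of the variance, Translucent-1 (−54.7) and Opaque-5 (−78.3) stood apart from the other 8 hens (−11.9 to 36.4). The magnum genes TF and OVALY also varied between hens, from a summed 8004 to 25226 CPM with Translucent-1 highest. TF averaged 15490 of a mean sum of 15556 CPM, so this range is almost wholly that of TF. Values without Opaque-5, or without both hens, are therefore given beside the results they moved most. The labels give separate hens, so the spread is between animals, but in pieces of whole tissue fewer cells of a type and less RNA per cell cannot be told apart.

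Members spread over more than 3 orders of magnitude in level. Of the 25 genes, 15 had a mean of at least 1 FPKM, 10 lay below 1 FPKM, and 4 had no read in at least 1 hen. The order was led by an epithelial collagen, followed by type VI, III, I and IV chains, and COL9A1 and COL22A1 were last.

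COL17A1, the transmembrane collagen of hemidesmosomes that ties epithelial cells to their basement membrane, was the highest, at 30.7 ± 6.17 FPKM (SD, n = 10). With the hens of each group in the order of their numbers, here and for the genes that follow, its FPKM was 21.24, 29.39, 38.96, 39.97 and 28.75 in the translucent group and 27.93, 30.98, 33.17, 34.46 and 22.64 in the opaque group. The 2 groups overlapped, and the lowest FPKM values were those of Translucent-1 and Opaque-5. By CPM, Opaque-1 (145.0) lay below Opaque-5 (146.9). COL17A1 ranked first in 9 of 10 hens and second in Opaque-1, and it exceeded COL3A1 and COL1A2 in all 10. It came first by CPM as well, at 172 CPM, so its place did not come from the scaling by gene length.

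**Figure D1:**
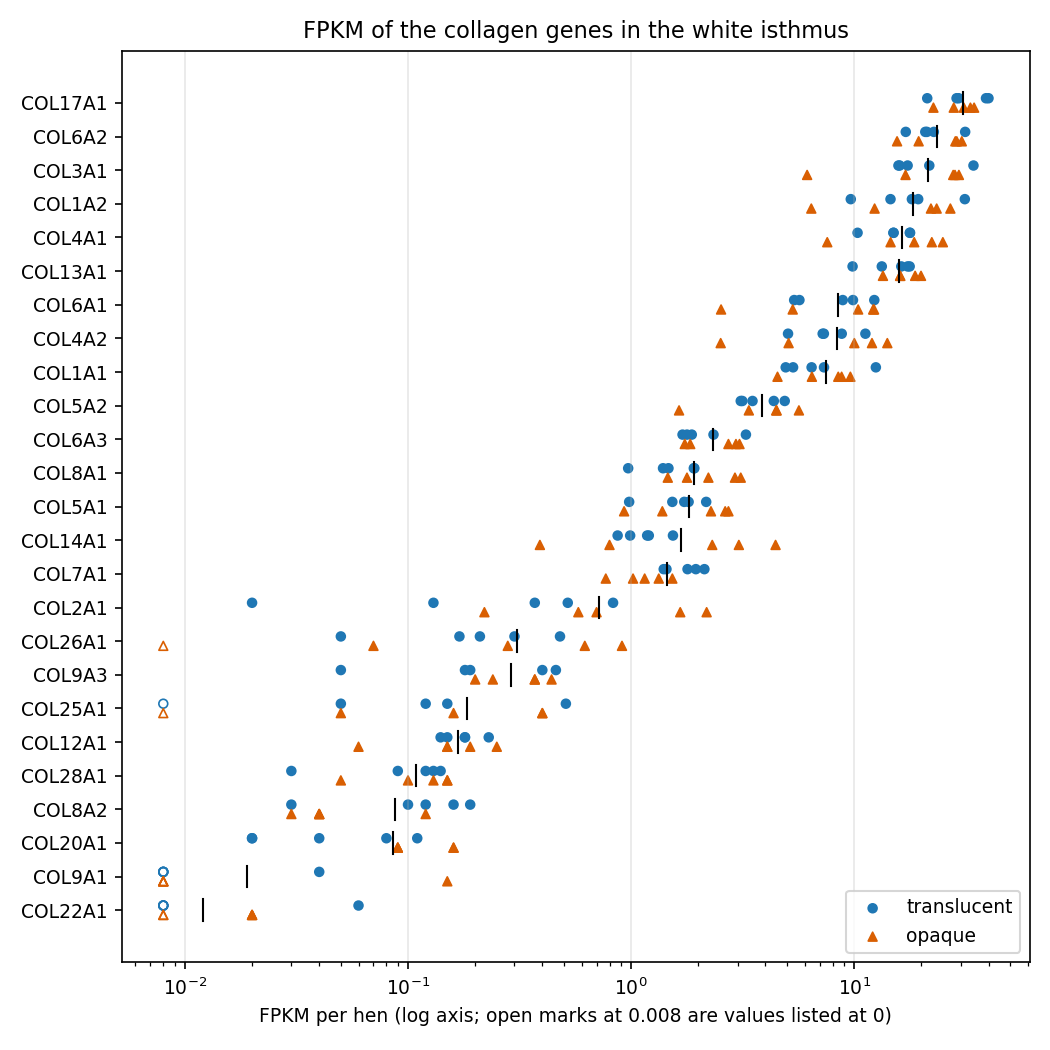
FPKM of each of the 25 collagen genes (rows, ordered by mean FPKM) in 5 translucent hens (circles) and 5 opaque hens (triangles) on a log axis, with the mean of 10 hens as a black bar and values listed at 0 as open marks at the left edge. COL17A1 leads with a mean of 30.7 FPKM, 15 genes lie at a mean of 1 FPKM or more, and circles and triangles overlap in every row.

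The type VI chains, which assemble into beaded filaments from 1 copy of each of 3 chains, were unequal. COL6A2 had 21.17, 20.82, 17.02, 31.42 and 22.74 FPKM in the translucent hens and 30.34, 28.81, 28.39, 19.44 and 15.56 FPKM in the opaque hens, a mean of 23.6 ± 5.74 FPKM. COL6A1 had 5.38, 8.88, 5.68, 12.3 and 9.87 FPKM in the translucent hens and 12.27, 12.16, 10.41, 5.3 and 2.53 FPKM in the opaque hens. COL6A3, the longest of the 3 chains, had 2.34, 1.87, 1.7, 3.27 and 1.78 FPKM in the translucent hens and 2.73, 3.06, 2.95, 1.74 and 1.84 FPKM in the opaque hens. COL6A2 was thus the highest of the 3 in every hen, by 2.30 to 6.15 times over COL6A1 and 8.46 to 12.8 times over COL6A3. The ratio of COL6A2 to COL6A1 was largest in Opaque-5, where COL6A1 was lowest, whereas COL6A3 was lowest in Translucent-3.

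Fibrillar chains came next. COL3A1, the single chain of type III collagen found in pliable tissues, had 15.78, 21.7, 15.98, 34.23 and 17.35 FPKM in the translucent hens and 27.77, 29.45, 28.28, 16.98 and 6.15 FPKM in the opaque hens. COL1A2, the alpha-2 chain of type I collagen, had 9.65, 19.35, 14.54, 31.31 and 18.13 FPKM in the translucent hens and 23.41, 26.97, 22.07, 12.34 and 6.42 FPKM in the opaque hens. Both were highest in Translucent-4 and lowest in Opaque-5, with a range of 5.57-fold for COL3A1 and 4.88-fold for COL1A2, and the order between them held in 8 of 10 hens.

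COL1A1 encodes the alpha-1 chain, of which a type I collagen molecule carries more copies than of alpha-2. The COL1A1 row nevertheless stood below COL1A2, at 6.44, 7.32, 4.93, 12.5 and 5.32 FPKM in the translucent hens and 8.48, 9.61, 8.78, 6.46 and 4.53 FPKM in the opaque hens. The FPKM ratio of COL1A1 to COL1A2 ranged from 0.293 to 0.706 and was below 1 in every hen. This ratio is uncertain, because 2 transcript loci assembled by the authors, which are no members, are also described as alpha-1 chains of type I and held 6252 reads in all against 4841 on the COL1A1 row. Their mean FPKM was 29.2 and 8.11. The former ranged from 18.1 to 36.3 FPKM and lay below COL17A1 in 7 of 10 hens. The first place of COL17A1 is therefore certain only among the 25 rows matched by symbol. The locus at 8.11 FPKM, with 2830 of the reads, carries the symbol Bad in place of a collagen symbol, so its identity is uncertain. With the reads of both loci added, the read ratio to COL1A2 rose from a mean of 0.471 to 1.19. Its median rose from 0.414 to 0.935, with a range of 0.606 in Opaque-2 to 2.63 in Opaque-5, so it was not above 1 in every hen. With 1 further locus described as alpha-1(I)-like (801 reads) the mean rose to 1.27 and the median to 1.03. The 2 loci did not follow COL1A1 from hen to hen: in Opaque-5 they held 574 reads against 230 on COL1A1, and in Translucent-4 they held 806 against 970.

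The type V chains, which enter type I fibrils and limit their width, were lower than type I and III. COL5A2 had 3.15, 3.5, 3.1, 4.88 and 4.36 FPKM in the translucent hens and 4.47, 5.65, 4.49, 3.37 and 1.64 FPKM in the opaque hens. It exceeded COL5A1 (1.82 ± 0.634 FPKM) by a mean of 2.19 times, with a range of 1.70 to 3.21. COL2A1, the cartilage collagen, was the sixth fibrillar member and had a mean of 0.721 FPKM with a spread of nearly its own size (SD 0.691, n = 10). Its reads numbered 2, 54, 34, 10 and 26 in the translucent hens and 43, 11, 83, 108 and 35 in the opaque hens, so the groups overlapped and Translucent-1 was close to having none.

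For the basement membrane, COL4A1 and COL4A2 encode the chains of the common type IV collagen, which joins 2 copies of alpha-1 with 1 of alpha-2. COL4A1 had 10.35, 15.01, 14.98, 17.79 and 17.75 FPKM in the translucent hens and 18.57, 24.96, 22.27, 14.55 and 7.57 FPKM in the opaque hens. COL4A2 had 5.05, 7.22, 7.31, 8.79 and 11.22 FPKM in the translucent hens and 10.01, 14.07, 12.01, 5.08 and 2.52 FPKM in the opaque hens. Both were highest in Opaque-2 and lowest in Opaque-5. The FPKM ratio of COL4A1 to COL4A2 was 2.11 ± 0.460 (SD, n = 10), lay between 1.58 and 2.08 in 8 hens, and reached 2.86 in Opaque-4 and 3.004 in Opaque-5.

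Among the remaining types, COL13A1, a transmembrane collagen of cell adhesion sites, was sixth in the order and had the smallest spread, with a coefficient of variation of 18.7%. Its FPKM was 9.83, 13.29, 17.35, 17.72 and 16.25 in the translucent hens and 16.05, 18.75, 16.08, 19.92 and 13.45 in the opaque hens. By CPM it fell to ninth place, at 24.0 CPM, since the gene length implied by its reads and FPKM was only 1.52 kb. COL8A1, a short-chain collagen known from vessel walls and the cornea, had 1.47, 1.92, 1.39, 1.91 and 0.97 FPKM in the translucent hens and 3.1, 2.22, 2.92, 1.46 and 1.78 FPKM in the opaque hens. COL14A1, which binds to the surface of fibrils (a FACIT collagen), had 0.87, 0.99, 1.18, 1.2 and 1.54 FPKM in the translucent hens and 4.44, 3.04, 2.31, 0.8 and 0.39 FPKM in the opaque hens. The opaque hens held both the 3 highest and the 2 lowest COL14A1 values, and its coefficient of variation of 74.2% was the largest of the 15 genes with a mean of at least 1 FPKM. COL7A1, the anchoring fibril collagen below epithelia, had 2.13, 1.4, 1.44, 1.79 and 1.95 FPKM in the translucent hens and 1.15, 1.02, 1.53, 1.33 and 0.77 FPKM in the opaque hens. COL17A1 exceeded COL7A1 by 9.97 to 30.4 times, and Translucent-1, with the highest COL7A1 and the lowest COL17A1, had the smallest ratio.

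The 10 members under 1 FPKM were COL2A1, COL9A3 and COL9A1 of cartilage, the FACIT genes COL12A1, COL20A1 and COL22A1, the transmembrane COL25A1, the short-chain COL8A2, and COL26A1 and COL28A1. COL26A1, the highest of the genes outside the named classes, was counted 4, 4, 9, 1 and 6 times among translucent hens and 13, 4, 13, 1 and 0 times among opaque hens. COL9A1 had no read in 8 hens and COL22A1 none in 6. A count of 0 allows up to 3 reads, which is 0.158 to 0.259 CPM in these libraries, so these genes were not detectable at this depth in those hens. This limit covers counting error only.

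Neighbours in the order of levels were in part indistinguishable. The order of COL1A2 and COL4A1 held in 5 of 10 hens, of COL4A2 and COL1A1 in 5, of COL6A1 and COL4A2 in 6, of COL8A1 and COL5A1 in 6, and of COL14A1 and COL7A1 in 3, which the mean places by the 3 high opaque hens. COL13A1 exceeded COL6A1, and COL1A1 exceeded COL5A2, in all 10 hens. By median FPKM the first 12 genes were the same, and by mean CPM 11 of these 12 were.

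Summed by class, the 6 fibrillar members made up 31.5% ± 4.62 (SD, n = 10) of the FPKM of all members, the 3 type VI chains 20.8% ± 2.38, COL17A1 with COL7A1 20.2% ± 4.29, the type IV chains 14.6% ± 2.41, and the 2 transmembrane members 10.1% ± 2.56. FACIT, short-chain and other members together held the small rest, with mean shares of 1.32%, 1.25% and 0.248%. The summed FPKM of fibrillar genes exceeded that of the basement membrane genes in every hen, by 2.19 ± 0.440 times with a range of 1.63 in Translucent-5 to 3.21 in Translucent-4. The mean ratio was 2.29 in the translucent and 2.09 in the opaque hens, and it was 1.33 without COL3A1. With every row described as a chain of these classes added, the alpha-1(I) loci and so the row with the symbol Bad among them, it was 3.67. The epithelial members stood at 1.43 ± 0.469 times the basement membrane genes, from 0.820 in Opaque-2 to 2.32 in Opaque-5, with group means of 1.47 and 1.40. This second ratio rested on COL17A1, since COL7A1 alone stood at 0.0656 of the basement membrane genes. Fibrillar exceeded epithelial FPKM in 9 hens, though in Translucent-3 the sums were nearly level at 40.6 and 40.4 FPKM. The order turned only in Opaque-5, where the ratio of fibrillar to epithelial members was 0.870. The epithelial sum of 23.4 FPKM in Opaque-5 was near that of Translucent-1, whereas its fibrillar sum of 20.4 FPKM was the lowest of all hens.

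**Figure D2:**
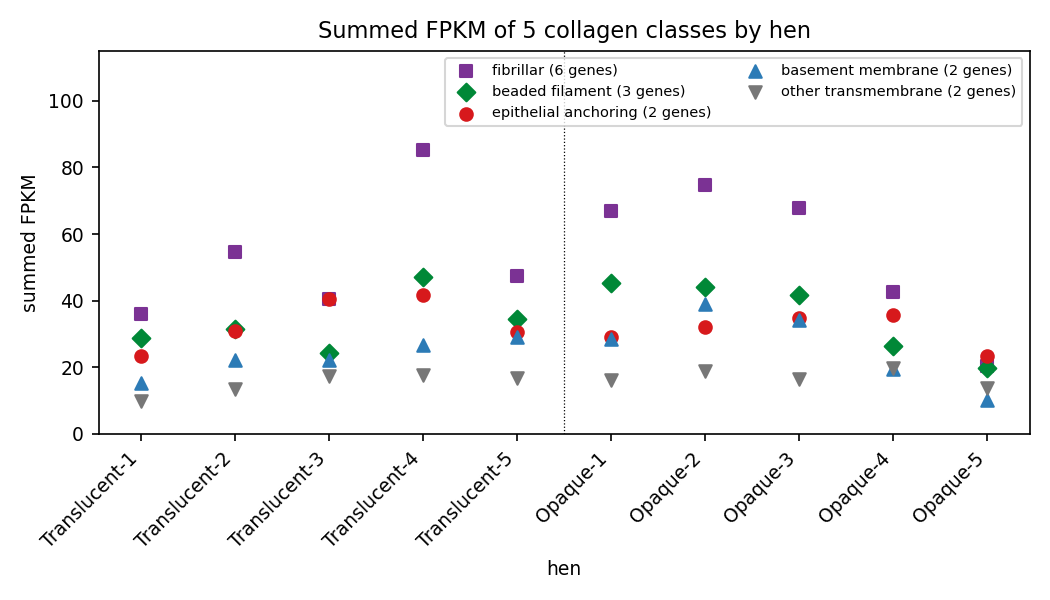
Summed FPKM (vertical axis) of 5 collagen classes in each hen, translucent hens left and opaque hens right of the dotted line, 1 mark per class and hen. Fibrillar members lie on top in 9 hens, from 36.02 to 85.22 FPKM, though nearly level with the epithelial anchoring genes in Translucent-3. They fall to 20.4 FPKM in Opaque-5, below the epithelial anchoring genes at 23.4 FPKM.

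The comparison of translucent with opaque hens asked whether the collagen genes go with the eggshell trait. None of the 18 members that passed the filter on low counts was called by edgeR's quasi-likelihood test at an adjusted p of 0.05 and an absolute log2 fold change over 1, as was 0% of all 12858 tested genes. At an unadjusted p of 0.05, 1 of the 18 members passed against 2.19% of all tested genes, and that member, COL7A1, was higher in the translucent hens (background 1.07% higher and 1.12% lower). DESeq2 also called no member (background 0.0246%) and gave 3 at an unadjusted p of 0.05, COL7A1, COL8A1 and COL2A1, against a background of 2.57%. In no member were the groups free of overlap, against 0.443% of all tested genes in either direction and 0.233% lower in translucent hens. The log2 fold change, translucent minus opaque, was negative in 13 of the 18 and their median was −0.10, while 51.4% of all tested genes were negative with a median of −0.01. Without Opaque-5 it was negative in 16, without Translucent-3 or Opaque-3 in 9, and without Opaque-2 in 9 with a median of 0.02, so this split depended on single hens.

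COL7A1 averaged 3.54 ± 0.894 CPM over translucent hens against 2.30 ± 0.476 CPM over opaque hens (SD, n = 5 each). Its log2 fold change was 0.62 (SE 0.25, 95% interval 0.06 to 1.17) with an unadjusted edgeR p of 0.032 and an adjusted p of 0.9999. An exact two-sided permutation test of its log2 CPM gave p = 0.0238, where the smallest p this design allows is 0.0079. By FPKM the 3 highest hens were translucent and the 4 lowest opaque, with Opaque-3 between. The row, an assembled locus, held 18 to 81 reads per hen. A second locus described as the same chain, with 43 reads in all, was counted apart. The unadjusted edgeR p lay above 0.05 when any 1 of Translucent-1, Translucent-4, Translucent-5, Opaque-1, Opaque-2 or Opaque-5 was left out. The log2 fold change was 0.54 to 0.63 without any 1 of the last 5 of these hens. Without Translucent-1 it was 0.46 with an unadjusted p of 0.0945, and without Translucent-1 and Opaque-5 it was 0.39 with a p of 0.139 by the same edgeR test.

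COL14A1, COL8A1 and COL2A1, singled out after their values were seen, had the lowest unadjusted edgeR p after COL7A1. They were lower in the mean of the translucent hens without passing. The unadjusted edgeR p was 0.0873, 0.0505 and 0.0623 in that order. Exact permutation tests of log2 CPM gave p = 0.452, 0.0714 and 0.103. COL14A1 averaged 7.30 ± 1.08 CPM over translucent hens against 13.4 ± 9.63 CPM over opaque hens, a log2 fold change of −0.88 (SE 0.47, 95% interval −1.92 to 0.15). Leaving out Opaque-5, its lowest hen, gave −1.13 with an unadjusted edgeR p of 0.00902 and an adjusted p of 0.999, and leaving out Opaque-1, its highest, gave −0.48 with an unadjusted p of 0.307. COL8A1 had a log2 fold change of −0.55 (SE 0.25, 95% interval −1.10 to 0.00), and COL2A1 of −1.54 (SE 0.75, 95% interval −3.18 to 0.09). These 3 values rest on 1592, 1161 and 406 reads over the 10 hens.

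For the abundant members the data bounded the difference more closely. COL17A1 had a log2 fold change of 0.08 with a 95% interval of −0.25 to 0.42, COL6A2 of −0.09 (−0.48 to 0.31), COL13A1 of −0.19 (−0.52 to 0.15) and COL4A1 of −0.19 (−0.69 to 0.31). COL4A1 depended on single hens, at −0.35 with an unadjusted edgeR p of 0.0448 (adjusted 0.999) without Opaque-5, and at −0.03 without Opaque-2. The intervals were wider for COL3A1, at −0.01 (−0.75 to 0.73), COL1A2, at 0.05 (−0.69 to 0.79), and COL4A2, at −0.11 (−0.88 to 0.65). Their standard errors of 0.34, 0.34 and 0.35 exceeded that of the less abundant COL8A1 (0.25), so precision did not simply follow abundance. COL6A1 stood at 0.01 (−0.76 to 0.78), COL1A1 at −0.03 (−0.58 to 0.53), COL5A2 at −0.02 (−0.55 to 0.52), COL5A1 at −0.26 (−0.83 to 0.31) and COL6A3 at −0.16 (−0.65 to 0.33). In 17 of 18 members the interval spanned 0, and in 13 it lay within −1 and 1, so a 2-fold difference between the groups was outside the interval for those 13 and not for the rest.

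**Figure D3:**
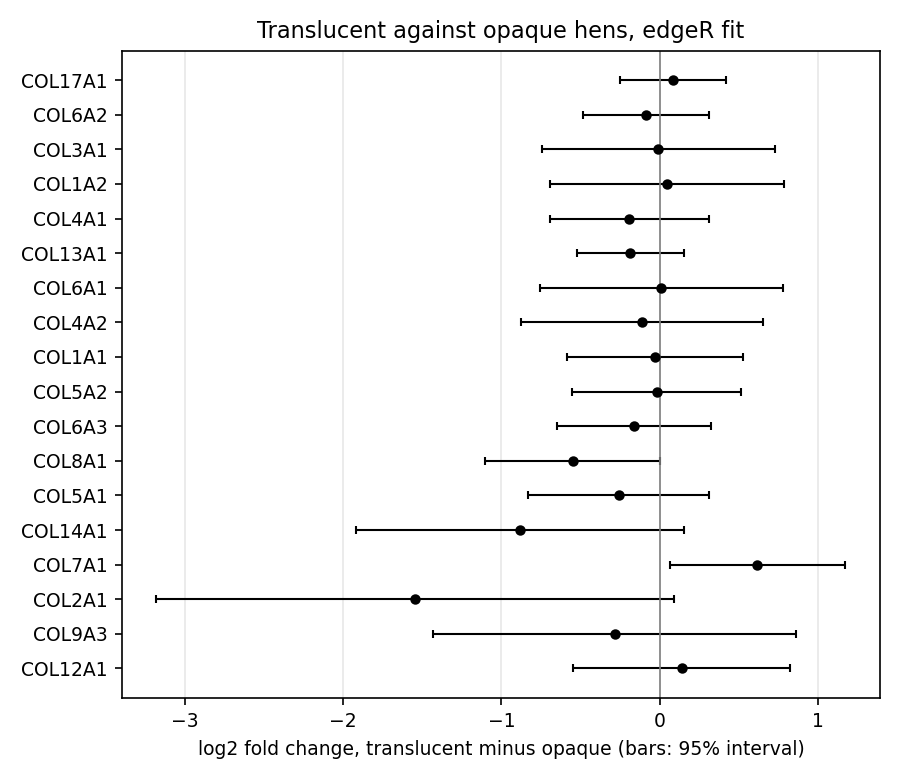
Log2 fold change of the 18 tested collagen genes, translucent minus opaque (horizontal axis), as points with 95% intervals from the edgeR fit over 10 hens. All intervals but that of COL7A1 (0.06 to 1.17) span 0, and the interval of COL17A1 (−0.25 to 0.42) is among the narrowest.

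The enzymes that build collagen, its receptors and proteases, and proteins that bind its fibrils were read from 3 lists with 59 genes, of which 50 were matched to a single row and 46 passed the filter. None of the 46 was called by edgeR, none had an unadjusted p under 0.05 (background 2.19%), and 21 log2 fold changes were negative and 25 positive. The most abundant were LOXL2, a lysyl oxidase that cross-links collagen, at 2786 ± 1154 FPKM, P4HB, a subunit of prolyl 4-hydroxylase, at 874 ± 106, and PPIB, a prolyl isomerase of the endoplasmic reticulum, at 405 ± 78.9 (SD, n = 10). ITGB1, the beta-1 integrin shared by collagen receptors, had 171 ± 18.6 FPKM, P4HA1, the catalytic prolyl 4-hydroxylase subunit, 131 ± 18.4, and DCN, the fibril-binding proteoglycan decorin, 120 ± 43.6. Each of these 6 had a higher mean FPKM than COL17A1, and P4HB, ITGB1 and P4HA1 varied little from hen to hen beside LOXL2, whose FPKM ranged from 1215 to 4877.

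Covariation over the 10 hens was read from log2 CPM for 14 pairs of members and for 25 relations of 5 members with summed marker genes of cell types, 39 relations in all, with Benjamini-Hochberg adjustment over the 39. By Pearson's r, 7 of the 14 pairs passed an adjusted permutation p of 0.05. Of the pairs that passed, only COL1A2 with COL4A1 crossed classes, and the others lay within the fibrillar, type IV or type VI genes. Only the 14 chosen pairs were tested, so this split does not show that covariation follows class. Outside the 14, as a description, fibrillar with type VI genes reached r = 0.95 (COL1A2 with COL6A1), in a range from 0.44. No pair with COL17A1 passed. Whether the pairs differ in r was not tested.

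COL4A1 and COL4A2 were the closest of the 14 tested pairs, with r = 0.95 (permutation p = 6e-05, adjusted 0.00234). Their Spearman's rho was 0.90 (permutation p = 0.00069, adjusted 0.0135). Without Opaque-2 and Opaque-5, the 2 hens farthest from the median of COL4A1, r was 0.82 (exact permutation p = 0.00997). These genes lie next to each other in the RefSeq gene list, with no protein-coding gene between them. COL1A2 and COL3A1 followed with r = 0.93 (permutation p = 0.00016, adjusted 0.00312) and rho = 0.88 (permutation p = 0.00143, adjusted 0.0139), and r was 0.82 (exact permutation p = 0.0181) without Translucent-4 and Opaque-5.

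COL1A2 and COL5A2 had r = 0.88 (permutation p = 0.00081, adjusted 0.0105) and rho = 0.87 (permutation p = 0.00217, adjusted 0.0169). COL1A2 and COL4A1, a fibrillar and a basement membrane chain, had r = 0.87 (permutation p = 0.00131, adjusted 0.0128) and rho = 0.89 (permutation p = 0.00123, adjusted 0.0139). Without Translucent-4 and Opaque-5, r was 0.75 for the former (exact permutation p = 0.0288) and 0.88 for the latter (exact permutation p = 0.00365). COL1A2 with COL4A1 was the single pair tested across these classes, and without Opaque-5 its r was 0.75 (adjusted exact permutation p = 0.0928). Without Translucent-1 and Opaque-5 its r was 0.64.

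Of the type VI pairs, COL6A2 and COL6A3 had r = 0.85 (permutation p = 0.00485, adjusted 0.0253) and rho = 0.81 (permutation p = 0.00709, adjusted 0.0395), with r = 0.78 (exact permutation p = 0.0365) without Translucent-3 and Translucent-4. COL6A1 and COL6A2, which also neighbour each other, had r = 0.79 (permutation p = 0.0052, adjusted 0.0253) and rho = 0.92 (permutation p = 0.00055, adjusted 0.0135), with r = 0.78 (exact permutation p = 0.0256) without Opaque-4 and Opaque-5. COL6A1 with COL6A3 was not among the tested pairs, and as a description its r was 0.43, and 0.59 without Opaque-5. COL5A1 and COL5A2 had r = 0.80 (permutation p = 0.00218, adjusted 0.017) and rho = 0.85 (permutation p = 0.00284, adjusted 0.0185). Without Opaque-2 and Opaque-5 this last r was 0.61 (exact permutation p = 0.105), so the relation rested on those hens.

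The other 7 pairs did not pass. COL1A1 and COL1A2, the 2 chains of type I collagen, had r = 0.72 (permutation p = 0.0188, adjusted 0.0656) and rho = 0.75 (permutation p = 0.0175, adjusted 0.0682). COL3A1 with COL14A1 and COL1A2 with COL12A1 each had r = 0.71, with adjusted permutation p-values of 0.0656 for both and rho of 0.52 and 0.59 (adjusted 0.218 and 0.174), and without Translucent-1 and Opaque-5 the r values were 0.47 and 0.33. COL1A2 and COL6A3 had r = 0.44 (permutation p = 0.20, adjusted 0.339) and rho = 0.58 (permutation p = 0.089, adjusted 0.174), and its r was 0.87 without Translucent-1 and Opaque-5.

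COL17A1 had r = 0.35 with COL1A2 (permutation p = 0.324, adjusted 0.486, rho = 0.38, adjusted 0.415), r = 0.30 with COL4A1 (permutation p = 0.412, adjusted 0.573, rho = 0.24, adjusted 0.59) and r = 0.02 with COL7A1 (permutation p = 0.948, adjusted 0.972, rho = 0.05, adjusted 0.941). The first of these was −0.13 (exact permutation p = 0.75) without Translucent-4 and Opaque-5. The 2 epithelial anchoring genes therefore showed no detectable relation with each other, which with 10 hens and 18 to 81 COL7A1 reads bounds it little.

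With deviations from the group means in place of the pooled values, 7 pairs passed again, and r of the 7 pairs above lay between 0.83 and 0.97. Without Opaque-5 only 3 pairs passed, COL4A1 with COL4A2 (r = 0.89), COL1A2 with COL3A1 (r = 0.88) and COL6A2 with COL6A3 (r = 0.92), each at an adjusted exact permutation p of 0.0324. Without Translucent-1 and Opaque-5 together 8 pairs passed.

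Over the 15 members with a mean of at least 1 FPKM, as a description, the 10 pairs among the 5 fibrillar genes had a median r of 0.82 (0.63 to 0.93) and the 10 pairs of fibrillar with type IV genes 0.87 (0.44 to 0.93). The 15 pairs of fibrillar genes with type VI genes had a median r of 0.79 (0.44 to 0.95), and the 15 pairs of fibrillar genes with COL7A1, COL13A1 and COL17A1 only 0.20 (−0.22 to 0.35). Without Opaque-5 these medians were 0.78, 0.74, 0.83 and 0.10. The 6 pairs of type IV with type VI genes had a lower median r of 0.63 (0.30 to 0.91), and 0.52 without Opaque-5. For each of the 15 genes the median r with all 12857 other tested genes lay between −0.02 and 0.02, though COL4A2 had 298 genes and COL4A1 199 genes with r above 0.9. The 95th percentile of r was 0.80 for COL1A2, COL5A1 and COL6A1, 0.85 for COL4A1, 0.86 for COL4A2 and 0.47 to 0.77 for the rest. Counting the first gene itself, 749 tested genes had an r with COL6A1 above that of COL6A2, and 657 with COL5A1 above that of COL5A2. With COL1A2, 144 were closer than COL4A1, 101 than COL5A2 and 18 than COL3A1. With COL4A1, 22 were closer than COL4A2, and with COL6A2, 13 were closer than COL6A3. With the fibrillar genes COL8A1 had a median r of 0.32 and COL14A1 of 0.71. Without Opaque-5 these were 0.60 and 0.52, so their order turned on that hen. With type IV genes COL14A1 had a median r of 0.82, and 0.72 without Opaque-5. COL13A1 had its highest r with COL17A1, at 0.65.

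**Figure D4:**
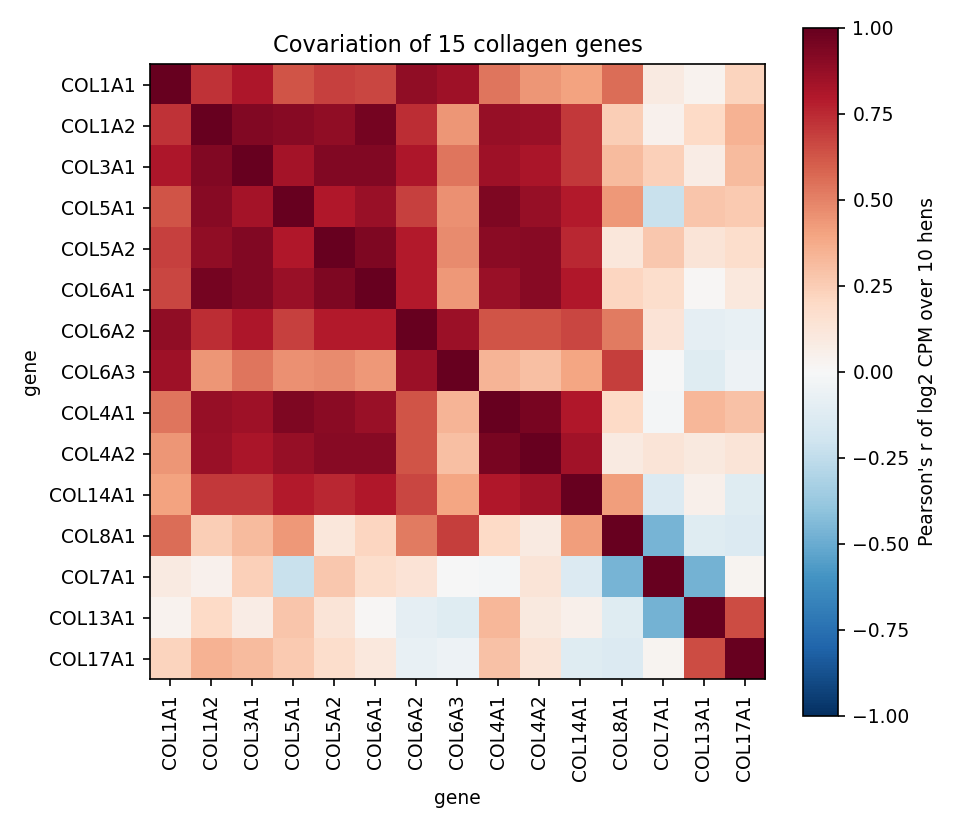
Pearson's r of log2 CPM over 10 hens between 15 collagen genes with a mean of at least 1 FPKM, from −1 (blue) to 1 (red), ordered by class from fibrillar to transmembrane. Fibrillar genes are mostly red with type VI and type IV genes (median r of 0.79 and 0.87). Type IV with type VI genes are paler (median r of 0.63, from 0.30 to 0.91). COL7A1, COL13A1 and COL17A1 stand apart (median r of 0.20 with fibrillar genes).

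Marker genes of other cells moved with some of these values. Summed CPM of 7 fibroblast markers was 231 to 409 in the translucent and 230 to 450 in the opaque hens, and that of 7 smooth muscle markers 246 to 820 and 346 to 506. The 6 epithelial markers summed to 2276 to 4250 and 2318 to 4709 CPM, the 6 endothelial markers to 162 to 251 and 156 to 248, and the 4 leukocyte markers to 52.8 to 198 and 37.6 to 102. All 5 ranges overlapped between the groups. Few genes carried the fibroblast, epithelial, endothelial and smooth muscle sums. DCN averaged 233 CPM of a mean fibroblast sum of 331, and LUM 47.3. Both are also among the fibril-binding proteins of the lists above. EPCAM averaged 1460 and KRT7 1017 CPM of a mean epithelial sum of 3190. PECAM1 averaged 111 CPM of a mean endothelial sum of 192. MYH11 averaged 172 and ACTA2 118 CPM of a mean smooth muscle sum of 433. Relations with these sums therefore weigh those genes most. Translucent-1 held the highest smooth muscle sum, Opaque-5 the highest epithelial and the lowest endothelial and leukocyte sums.

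Of the 25 marker relations, 3 passed. COL1A2 rose with the fibroblast sum, with r = 0.82 (permutation p = 0.00402, adjusted 0.0253) and rho = 0.79 (permutation p = 0.00878, adjusted 0.0428), and r was 0.86 (exact permutation p = 0.00967) without Translucent-4 and Opaque-5. COL1A2 fell as the epithelial sum rose, with r = −0.79 (permutation p = 0.00666, adjusted 0.0289) and rho = −0.66 (permutation p = 0.0439, adjusted 0.122), and this relation was past 0.05 without those 2 hens (r = −0.70, exact permutation p = 0.0566), with r = −0.50 without Translucent-1 and Opaque-5. COL6A3 rose with the smooth muscle sum, with r = 0.72 (permutation p = 0.0127, adjusted 0.0494) and rho = 0.72 (permutation p = 0.0237, adjusted 0.0835), and it no longer held without Translucent-3 and Translucent-5 (r = 0.47, exact permutation p = 0.252).

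COL4A1 had r = 0.71 with the endothelial sum (permutation p = 0.0215, adjusted 0.0656, rho = 0.71, adjusted 0.0835). Without Opaque-2 and Opaque-5 this r was 0.41 (exact permutation p = 0.313). COL1A2 had r = 0.08 with the smooth muscle sum (permutation p = 0.837, adjusted 0.972, rho = 0.31, adjusted 0.502), which became 0.56 without Translucent-1 and Opaque-5. COL17A1 had r = −0.05 with the epithelial sum (permutation p = 0.892, adjusted 0.972, rho = −0.03, adjusted 0.97), and r = 0.64 without Translucent-1 and Opaque-5, the 2 hens with the highest epithelial sums. The remaining 19 marker relations ranged from −0.65 to 0.67, the latter for COL4A1 with the fibroblast sum (rho = 0.76, adjusted permutation p = 0.0645). Among the 19, COL4A1 with the epithelial sum went from −0.65 to −0.12 without Translucent-1 and Opaque-5. Without the same hens COL3A1 with the smooth muscle sum went from 0.37 to 0.81. No marker relation passed without Opaque-5 or with deviations from the group means, 6 passed with scaling by library size alone, and 1 passed without Translucent-1 and Opaque-5. With 1 other hen left out, 1 passed without Translucent-2, Translucent-3, Opaque-1 or Opaque-4 and 8 passed without Translucent-5. The part of cell makeup in the covariation of the collagen genes was not tested.

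**Figure D5:**
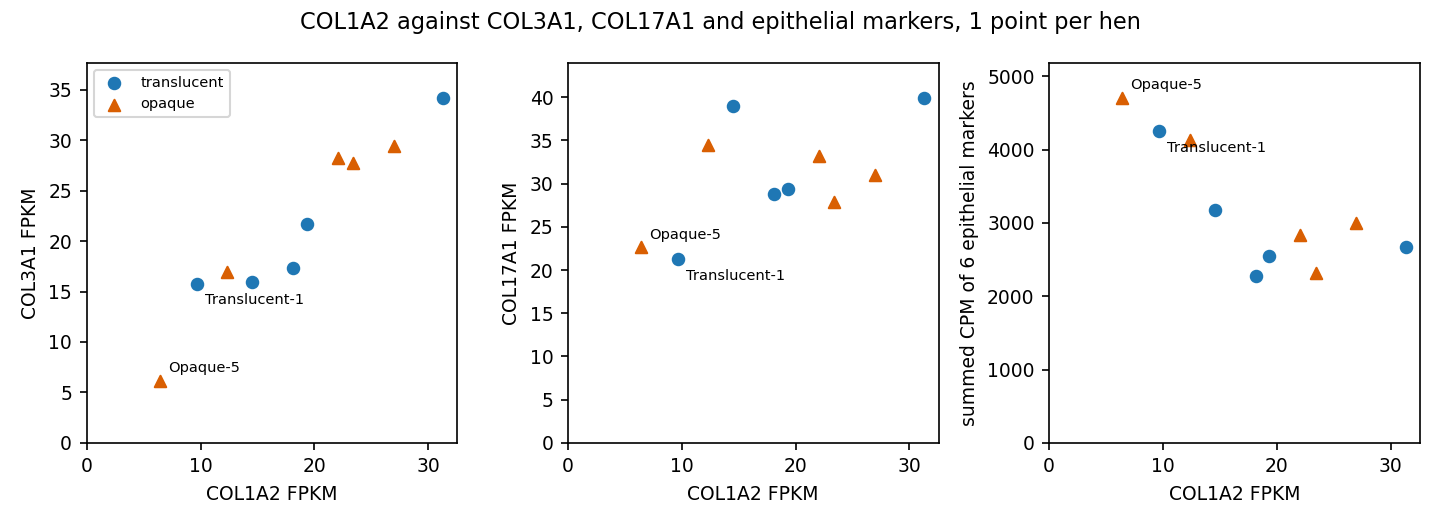
COL1A2 FPKM (horizontal axes) against COL3A1 FPKM, COL17A1 FPKM and the summed CPM of 6 epithelial markers (vertical axes, from left to right), 1 point per hen, circles translucent and triangles opaque. COL3A1 climbs with COL1A2 from Opaque-5 (6.42 and 6.15 FPKM) to Translucent-4 (31.31 and 34.23 FPKM), COL17A1 is scattered, and the epithelial sum is highest in Opaque-5 at 4709 CPM.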

How the data were processed

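Total RNA was extracted with Trizol, mRNA was captured on beads, and libraries were sequenced on an Illumina NovaSeq X Plus, as the labels state. The submitters' processing notes name fastp, Bowtie2, HISAT2, StringTie, RSEM and DESeq2, without versions. The genome build and the use of strand are not given in the sources used here, so overlapping genes could share reads. The deposited table holds RSEM expected counts and FPKM values computed by the authors for each gene and hen. Of the expected counts 6.73% were fractional, and all were rounded to whole numbers.

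Counts were tested with edgeR 4.0.16 in R 4.3.3 (TMM scaling, filterByExpr, quasi-likelihood, Benjamini-Hochberg over all 12858 tested genes), and 7 of 25 members did not pass the filter. A call needed a log2 fold change beyond 1 in size with an adjusted p below 0.05. Standard errors were the log2 fold change over the square root of F. DESeq2 1.42.0 and limma 3.58.1 (on log2(FPKM + 1) and log2(FPKM + 0.1)), other scalings and filters and leaving out hens were alternatives. Log2 CPM used a prior count of 2. Correlations used 100000 resamples at 10 hens and all orders below that. Scripts were tested on simulated data. Values per hen are given for the 12 members with the highest mean FPKM, the highest of each class and those with an unadjusted p under 0.05, and means for the 6 most abundant machinery genes. All 25 members matched the RefSeq gene list by symbol. The members, gene lists and pairs were chosen with earlier results of these data known.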

Additional observations from a re-analysis of the deposited data

How the results depend on the processing

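No alternative called a collagen member. The count of members with an unadjusted p under 0.05, 1 in the edgeR fit, was 3 with DESeq2, 2 with at least 10 reads in every hen, and 0 to 3 with 1 hen left out (0 without Translucent-1, Translucent-5 or Opaque-1, 3 without Translucent-2 or Opaque-4). With the replicate number as a block it was 0; same-numbered hens are different animals, their deviations had a mean r of −0.13 (−0.42 to 0.10), and no hen correlated best with its own number, so the numbers pair nothing. The count of machinery genes, 0, was 0 to 3 with 1 hen left out (3 without Opaque-5) and 3 without Translucent-1 and Opaque-5, a setting chosen after seeing the data. Log2 fold changes near 0 changed sign without passing: COL3A1 gave 0.0038 with no low-count filter, 0.083 with the replicate block, and 0.069 and 0.084 with limma at pseudocounts of 1 and 0.1; COL4A2 gave 0.025, 0.020 and 0.051 and COL5A2 0.040, 0.013 and 0.038 with the block and the 2 limma settings; COL6A1 gave −0.020 with library size alone. Without Translucent-1 and Opaque-5, COL1A2 gave −0.0075 and COL6A1 −0.11. With 1 hen left out the ranges of the log2 fold change were COL17A1 −0.00045 to 0.16, COL6A2 −0.21 to 0.0048, COL3A1 −0.23 to 0.13, COL1A2 −0.20 to 0.23, COL6A1 −0.20 to 0.18, COL4A2 −0.33 to 0.13, COL1A1 −0.28 to 0.090, COL5A2 −0.18 to 0.15. The class ratios moved without the leading gene, to 1.33 and 0.0656, and the fibrillar one with all described rows, to 3.67. COL4A1 ranged from −0.35 to −0.033 with 1 hen left out. The alternative without COL15A1 and COL18A1 was not run, as neither is a member. The count of pairs passing, 7, was 3 to 9 with 1 hen left out, and that of marker relations, 3, was 0 to 8, 0 with deviations from the group means, 6 with library size alone, 6 with log2 FPKM and 1 without Translucent-1 and Opaque-5. Without those 2 hens r was −0.088 for COL1A2 and COL17A1, −0.22 for COL4A1 and COL17A1 and 0.64 for COL17A1 and the epithelial sum; COL7A1 and COL17A1 gave −0.13 with group deviations. With 1 hen left out the ranges of r were COL7A1 with COL17A1 −0.17 to 0.44, COL1A2 with smooth muscle −0.057 to 0.46, COL17A1 with epithelial −0.21 to 0.17. The causes of these shifts were not tested. Depth limits the low members: COL7A1 and COL2A1 had as few as 18 and 2 reads in a hen.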

Other observations

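Some collagen chains appear in the table only through their descriptions and carry no matching symbol. There were 13 such rows. The most covered of the other types were type XXVII, a fibrillar collagen (1787 reads, 1.61 FPKM), type XXI, a FACIT collagen (1153 reads, 4.45 FPKM), and type XV, a collagen of basement membrane zones (1000 reads, 2.06 FPKM). Between hens, type XXVII ranged from 0.55 to 3.11 FPKM and type XV from 0.4 to 5.68 FPKM. Another row described as type XV, a partial chain, had 97 to 111 reads in 3 hens and none in 2. Choices made after seeing the data, adding the rows described as types XV, XXIV and XXVII alone left the mean ratio of fibrillar to basement membrane FPKM at 2.13, while adding every row of these classes, with the alpha-1(I) loci, took it from 2.19 to 3.67 and that of epithelial to basement membrane FPKM from 1.43 to 1.27.

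Of all 12857 other tested genes, the one whose log2 CPM followed COL1A2 most closely over the 10 hens was CASD1 (r = 0.97, and 0.95 without Opaque-5), which encodes a sialic acid O-acetyltransferase and is the next protein-coding gene to COL1A2 in the RefSeq list. COL6A1 was in place 6 (r = 0.95) and FBLN2, an extracellular matrix fibulin, in place 10 (r = 0.94). The closest to COL4A1 was SOX9 (r = 0.97), a transcription factor on another chromosome, and the closest to COL17A1 was TMEM63C (r = 0.92). These genes were picked for their likeness among all tested genes, so the values are descriptions.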
